A study of Mus musculus with 221 samples.

Results

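Oxidative phosphorylation is carried out by 5 protein complexes of the inner mitochondrial membrane, and the 109 genes described here are the protein-coding genes whose symbols name a subunit of complexes I to IV, a subunit of ATP synthase or a complex I assembly factor. They were chosen by symbol alone: the prefixes Nduf, Uqcr, Atp5, Cox4 to Cox8, mt-Nd, mt-Co, mt-Atp and mt-Cytb and the genes Sdha, Sdhb, Sdhc and Sdhd, with a protein_coding transcript and no "-ps" in the symbol. Of 78001 gene symbols, 129 matched before the conditions on biotype and "-ps" and 109 after them: 13 genes of the mitochondrial genome and 96 nuclear genes. The nuclear genes were 40 complex I subunits, 8 complex I assembly factors, 4 genes of complex II, 8 of complex III, 18 of complex IV and 18 of ATP synthase. Together they had 450 of the 278369 transcripts counted. No measured value entered this rule, although the members were chosen with earlier results of these data known.

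Complexes I and II pass electrons from NADH and succinate to ubiquinone, complex III passes them on to cytochrome c and complex IV to oxygen. Complexes I, III and IV pump protons, and ATP synthase uses the resulting gradient to make ATP. Complex II is encoded in the nucleus alone, whereas the other complexes also hold subunits made from the maternally inherited mitochondrial genome, so that both genomes must be expressed to assemble the chain. Several complex IV subunits, and Cox4i1 and Cox4i2 among them, exist as isoforms encoded by different genes with tissue-dependent use.

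The values came from nanopore long-read RNA-seq of single mouse cells undergoing endothelial-to-hematopoietic transition (EHT), in which hemogenic endothelium (HE) gives rise to blood. The cells came from untreated embryos of the Runx1b-RFP and Gfi1-GFP reporter lines, bred from C57BL/6JOlaHsd reporter males and CD-1 females. For HE-enriched yolk sac cells the paper names both single and double reporter mice. HE of the intra-embryonic aorta-gonad-mesonephros region (HE-AGM) was sorted as RUNX1+ KIT- CDH5+ CD41- CD45- cells with or without GFI1, and HE of the yolk sac (YS) as RUNX1+ KIT+ CD31+ CD41- CD45- cells with or without GFI1, so the KIT gate differed with the tissue. The 9 clusters were early and late HE-AGM (AGM_3 and AGM_4), the following AGM cluster AGM_5 (labelled HE-Hb), early and late arterial yolk sac HE (HE-YSA, YS_m1 and YS_m2) with the early progenitor cluster YS_p1, and early and late yolk sac plexus HE (HE-YSP, YS_b2 and YS_b3) with the early progenitor cluster YS_p2. Yolk sac cells were taken at E9.0, E9.5 or E10.5, and the library names gave a stage for 1 AGM cell alone, E10.5. Sorted cells had passed a limit on mitochondrial content in earlier short-read libraries of the same cDNA, which bounds how far a mitochondrial share can vary between cells.

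Of 221 cells, 208 had at least 17595 estimated counts and were used: 29, 20 and 21 in AGM_3, AGM_4 and AGM_5, 23, 29 and 17 in YS_m1, YS_m2 and YS_p1, and 25, 24 and 20 in YS_b2, YS_b3 and YS_p2. Totals per cell ranged from 30323 to 125339 in the AGM and from 18131 to 84052 in the yolk sac, so AGM values are the more precise. Apart from 1 YS_m1 cell, the AGM and yolk sac cDNA was made in different projects, so tissue, KIT gate and cDNA project cannot be told apart in any comparison of AGM with yolk sac. Depth also moved with tissue, but the ranges overlapped, and the main mitochondrial result is given below for cells of like depth. Each cell was a GEO sample and no embryo or litter was named, so each cluster or population was a single sample, no test or p-value was possible, and intervals are exact 95% Poisson (levels) or binomial (shares) intervals on rounded estimated counts. They cover counting error only, since reads came from amplified cDNA without molecular identifiers. Each of the 3 nanopore runs held cells of every cluster. No cDNA library name and no pair of run and barcode was repeated, although all 74 barcode numbers were used in more than 1 run. The library names of 3 yolk sac cells differed from the rest and those of 2 of them held "AGM", and the results below were also computed without these 3 cells.

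Most marker lists placed the clusters as labelled, in summed CPM (counts scaled to a common total), and the HE genes did not in the plexus trajectory. The 6 endothelial markers lay between 252 in AGM_5 and 1829 in AGM_3, the 5 blood markers between 138 in YS_b2 and 1090 in AGM_5, the 4 arterial markers between 1.52 in YS_p1 and 1132 in AGM_3, and the 3 yolk sac plexus markers between 1.03 in AGM_3 and 1868 in YS_b2. The 2 HE genes, Runx1 and Gfi1, lay between 16.8 in YS_p1 and 226 in AGM_4, but the early plexus HE cluster YS_b2 had 17.6 CPM, below YS_p2 (19.1 CPM) and AGM_5 (45.7 CPM), and its Runx1 level of 1.18 CPM was the lowest of the 9 clusters. Coro1a made up most of the blood sums of AGM_5, YS_p1 and YS_p2, and Itga2b was highest in YS_b2 (51.7 CPM). Markers of other cells were mostly low. The 9 erythroid markers lay between 3.65 in YS_b3 and 359 in AGM_3, the 3 megakaryocyte markers between 0 and 52.9, the 4 macrophage markers between 0 and 121 (Adgre1 at 0), the 4 mesenchymal markers between 0 and 7.22, the 4 yolk sac endoderm markers between 0 and 2.58 (Ttr and Cubn at 0), and the 4 heart or skeletal muscle markers between 0 and 206, the highest in YS_m1 (Myl7 and Ckm at 0). Mrc1, which is also 1 of the plexus markers, had 108 CPM in YS_b2, the cluster with the highest macrophage sum. Actc1 had 206 CPM in YS_m1, the cluster with the highest muscle sum. The part of such other cells in the results below was not tested.

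Many of these genes have near-identical pseudogene copies elsewhere in the genome, and long reads that could come from either are divided between them by the estimation of transcript abundance. Of 13458 annotated pseudogene transcripts with a sequence, 206 had a member as their best match at 80% identity or more over at least 50% of the pseudogene, and they matched 69 members, 12 of the 13 mitochondrial and 57 nuclear genes. Pseudogenes of mitochondrial members took 1.04 to 1.82% of all counts in the 9 clusters, beside 1.66 to 2.95% for the members themselves, and those of nuclear members took 0.802 to 1.20%. Pairs of 5 members described below are printed here from the mouse reference (GRCm38 with GENCODE M21), as 60 bases of the coding strand of each, with bases that differ in capitals. The coordinates are those of the whole transcript or pseudogene. mt-Atp6 and Atp6-ps, the most abundant pair, are shown from the start codon and were identical over all 678 aligned bases, and their mean levels over the 9 clusters were 4451 and 4572 CPM.
mt-Atp6 (chrM:7927-8607, plus strand): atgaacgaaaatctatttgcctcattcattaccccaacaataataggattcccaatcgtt
Atp6-ps (chr1:24613974-24614651, minus strand): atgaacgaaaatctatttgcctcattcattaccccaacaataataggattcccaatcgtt
mt-Nd2 and Gm13339, shown for a gene whose ratios below hardly changed with its pseudogenes, are given over coding bases 529 to 588 and matched at 96.7% of 510 bases.
mt-Nd2 (chrM:3914-4951, plus strand): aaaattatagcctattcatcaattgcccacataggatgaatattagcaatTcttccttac
Gm13339 (chr2:22590024-22590533, minus strand): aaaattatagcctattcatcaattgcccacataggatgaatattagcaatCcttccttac
The other pairs belong to genes whose calls below were lost with pseudogenes. Uqcrb and Gm2962, shown from the start codon, matched at 98.2% of 336 bases.
Uqcrb (chr13:66900617-66905378, minus strand): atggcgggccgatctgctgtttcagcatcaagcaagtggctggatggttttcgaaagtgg
Gm2962 (chr1:170925309-170925644, minus strand): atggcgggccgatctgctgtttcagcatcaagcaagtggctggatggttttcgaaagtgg
Cox6b1 and Gm38305, shown from the start codon, matched at 87.1% of 155 bases and differ at 10 of the 60 shown.
Cox6b1 (chr7:30616974-30626114, minus strand): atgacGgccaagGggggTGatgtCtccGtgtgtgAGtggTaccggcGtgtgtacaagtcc
Gm38305 (chr3:71465229-71465669, minus strand): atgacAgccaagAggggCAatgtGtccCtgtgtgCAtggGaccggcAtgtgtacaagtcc
Cox6c and Cox6c2, an annotated processed pseudogene, are shown from the start codon and matched at 97% of 231 bases.
Cox6c (chr15:35932000-35938009, minus strand): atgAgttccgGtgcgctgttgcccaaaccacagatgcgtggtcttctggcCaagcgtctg
Cox6c2 (chr12:56373593-56373823, minus strand): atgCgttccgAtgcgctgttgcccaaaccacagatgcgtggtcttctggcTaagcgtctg
All gene ratios below are therefore given for the gene alone and, where it matters, for the gene plus its matched pseudogenes. Reads of a gene and of an identical copy cannot be told apart, and counts of such genes are uncertain.

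Of the 109 members, 92 had a mean of at least 20 CPM over the 9 clusters and entered the comparisons: all 13 mitochondrial genes, 34 complex I subunits, 6 assembly factors, all 4 genes of complex II, 7 of complex III, 11 of complex IV and 17 of ATP synthase. The members nearest to this limit were Atp5mg (19.7 CPM), Ndufa12 (19 CPM) and Cox6b2 (15.9 CPM) below it and Ndufaf3 (20.8 CPM), Ndufaf7 (22.8 CPM) and Ndufa10 (27.9 CPM) above it. No count was found in any cell for 5 members, Cox7b2, Cox8b, Cox8c, Ndufa4l2 and Ndufb11b, each of which the limit of 3 counts over all 208 cells puts at or below 0.306 CPM. The other 12 were detected at lower levels. Some of these low values stood beside far higher counts on matched pseudogenes. Ndufa12, a complex I accessory subunit, had 19 CPM and its pseudogenes 674 CPM, and Atp5mg, a membrane subunit of ATP synthase, had 19.7 CPM and its pseudogenes 679 CPM.

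Per kilobase of transcript, mitochondrial genes held the highest levels. The long-read counts themselves are not divided by length, and this division raises short transcripts relative to long ones. Among the members, mt-Atp8 ranked 13 in CPM and 2 per kb, and mt-Nd5 ranked 40 and 67. The mean level over the 9 clusters was 6536 CPM per kb for mt-Atp6 and 4508 for mt-Atp8, which encode membrane subunits of ATP synthase, 4038 for mt-Nd1 of complex I, and 2925 and 2899 for mt-Co2 and mt-Co3 of complex IV. mt-Cytb of complex III had 1974 CPM per kb, mt-Nd4l 1389, mt-Co1 1211 and mt-Nd4 1060. The lowest was mt-Nd5, the longest of the 13, with 160 CPM per kb, and mt-Nd2 (651), mt-Nd6 (714) and mt-Nd3 (839) lay above it. Not divided by length, the means ranged from 292 CPM for mt-Nd3 to 4451 CPM for mt-Atp6.

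Among nuclear members, the highest levels per kilobase, a scale that raises short transcripts, belonged to small structural or regulatory subunits. Cox8a of complex IV had 2452 CPM per kb, Ndufa4, first described as a complex I subunit and since placed in complex IV, 2451, and Atp5if1, which encodes the inhibitory factor of ATP synthase, 2228. Cox4i1, the ubiquitous form of complex IV subunit 4, had 1953 CPM per kb, Atp5f1e, the small epsilon subunit of the catalytic part of ATP synthase, 1943, and Cox6a1 1619. All 6 were detected in all 208 cells, with mean levels of 1337, 1086, 1131, 1450, 814 and 947 CPM in this order. Other members with high counts in their groups were Ndufb8 (497 CPM) and Ndufc2 (439 CPM) of complex I, the assembly factors Ndufaf8 (114 CPM), Ndufaf2 (66.5 CPM) and Ndufaf6 (35.5 CPM), and Uqcr10 (543 CPM), Uqcrc1 (198 CPM) and Uqcrh (164 CPM) of complex III. Atp5f1c, the central stalk subunit of ATP synthase, had 794 CPM. The 3 genes for the identical mature c subunit of the rotor were all detected, Atp5mc2 at 766, Atp5mc3 at 692 and Atp5mc1 at 216 CPM per kb, and the pseudogenes of Atp5mc1 had 1159 CPM beside 192 CPM for the gene.

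HE-AGM devoted a larger share of its counts to mitochondrial mRNA than either yolk sac HE. The 13 genes took 2.80% of counts (95% interval 2.78 to 2.81%) in HE-AGM, against 1.81% (1.79 to 1.82%) in HE-YSA and 1.91% (1.89 to 1.93%) in HE-YSP. The summed level was 1.55-fold higher in HE-AGM than in HE-YSA and 1.46-fold higher than in HE-YSP (log2 ratios of 0.63 and 0.55). In cells of 30000 to 60000 counts the log2 ratios were 0.74 and 0.63. Single cells had a lowest, median and highest share of 2.12, 2.69 and 5.84% in HE-AGM, against 0.742, 1.80 and 3.15% for HE-YSA and 1.17, 1.80 and 3.24% for HE-YSP, so the populations overlapped cell by cell. They did not overlap between runs, with 2.88, 2.71 and 2.79% in runs 1, 2 and 3 of HE-AGM, 1.80, 2.03 and 1.66% of HE-YSA and 1.91, 1.92 and 1.91% of HE-YSP.

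The same order held at the level of clusters and did not follow the trajectory toward blood. AGM_3, AGM_4 and AGM_5 had mitochondrial mRNA shares of 2.95, 2.58 and 2.74%, YS_m1, YS_m2 and YS_p1 of 1.81, 1.80 and 1.66%, and YS_b2, YS_b3 and YS_p2 of 1.92, 1.90 and 1.66%. Each AGM cluster was above each yolk sac cluster. From late HE to the next cluster the summed log2 ratio was 0.09 for AGM_5 over AGM_4, -0.12 for YS_p1 over YS_m2 and -0.20 for YS_p2 over YS_b3, and in each of these the 3 runs differed in sign. Between the yolk sac populations it was 0.08 for HE-YSP over HE-YSA, again with runs of both signs.

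The shift in estimated counts was not the same for every mitochondrial gene. The log2 ratios of HE-AGM over HE-YSA ran from -0.07 for mt-Nd3 to 1.99 for mt-Nd4l, with a median of 0.68 beside -0.02 for all 5864 genes tested, and those over HE-YSP from -0.07 for mt-Atp8 to 1.96 for mt-Nd2, with a median of 0.59 beside 0.00. These comparisons share the HE-AGM cells. Here and below, a gene was called when it was at least 2-fold higher or lower. Against HE-YSA, 5 of 13 mitochondrial genes were called higher, all complex I subunits, beside 20.6% of all genes, and none lower, beside 14.5%. Against HE-YSP it was 3 of 13, beside 22%, and none lower, beside 16.2%.

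The complex I genes mt-Nd2 and mt-Nd4l stood farthest apart. mt-Nd2 had 1352, 1279 and 1412 CPM in AGM_3, AGM_4 and AGM_5, and 354, 339, 302, 287, 392 and 361 CPM in YS_m1, YS_m2, YS_p1, YS_b2, YS_b3 and YS_p2. mt-Nd4l had 931, 734 and 739 CPM in the AGM clusters and between 165 (YS_b2) and 282 CPM (YS_b3) in the yolk sac. For both genes every AGM cluster lay above every yolk sac cluster, although single cells overlapped: the lowest, median and highest cell had 462, 1235 and 2318 CPM of mt-Nd2 in HE-AGM, against 29.7, 307 and 1155 CPM for HE-YSA and 61.3, 300 and 1563 CPM for HE-YSP. The log2 ratios of mt-Nd2 were 1.93 over HE-YSA (1.74, 1.61 and 2.31 in the runs) and 1.96 over HE-YSP (2.06, 1.74 and 2.01).

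For mt-Nd4l the log2 ratios were 1.99 and 1.93. The genes mt-Nd4 (1.24 and 1.06), mt-Nd5 (1.13 and 0.73) and mt-Nd6 (1.04 and 0.70), also of complex I, followed. By contrast, mt-Nd3 (-0.07 and -0.05) and mt-Atp8 (-0.01 and -0.07) had almost the same estimated level in the 3 populations. The estimates of mt-Co3 (0.20 and 0.18), mt-Co2 (0.33 and 0.29) and mt-Nd1 (0.45 and 0.34) differed little. mt-Cytb (0.68 and 0.59), mt-Co1 (0.68 and 0.62) and mt-Atp6 (0.67 and 0.59) lay between. How the estimation divided reads among the mitochondrial transcripts was not tested, and the ratios of single genes rest on it. So do differences between genes, such as mt-Atp8 beside mt-Atp6 and mt-Nd4l beside mt-Nd4, which are not to be read as separate shifts in mRNA. Of the 13 genes, 10 against HE-YSA and 11 against HE-YSP had the same sign in all 3 runs.

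Adding the matched pseudogenes left the summed difference in place and changed single genes. Members and their pseudogenes together took 4.53% of counts in HE-AGM, against 3.02% in HE-YSA and 3.16% in HE-YSP. mt-Nd2 stayed at 1.84 and 1.91 and mt-Nd4l at 2.17 and 2.10, whereas mt-Nd4 went from 1.24 and 1.06 to 0.66 and 0.54, and mt-Co1 from 0.68 and 0.62 to 1.06 and 1.04. The pseudogenes of mt-Nd4 were lower in HE-AGM (224 CPM, beside 639 and 656 CPM in HE-YSA and HE-YSP) and those of mt-Co1 higher (1989 CPM, beside 585 and 549 CPM). On this count 4 of 13 genes were called higher against HE-YSA, beside 18.7% of all genes, and 3 against HE-YSP, beside 20%, and none lower, beside 14.7% and 16.4%.

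The nuclear members as a whole did not share the mitochondrial shift. They took 2.14% of counts (2.13 to 2.16%) in HE-AGM, against 2.28% (2.26 to 2.30%) in HE-YSA and 2.53% (2.50 to 2.55%) in HE-YSP, with lowest, median and highest cells at 1.47, 2.17 and 2.70%, 1.63, 2.24 and 3.32%, and 1.66, 2.53 and 3.25%. The summed log2 ratio was -0.09 for HE-AGM over HE-YSA and -0.24 over HE-YSP, negative in each run, and 0.15 for HE-YSP over HE-YSA, positive in each run. Per gene, the median log2 ratio of the 79 nuclear members tested was 0.03 against HE-YSA and -0.15 against HE-YSP, beside -0.02 and 0.00 for all genes. HE-AGM thus held more mitochondrial and slightly less nuclear oxidative phosphorylation mRNA relative to its total than the yolk sac populations.

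Fewer nuclear members than genes in general were called. Against HE-YSA, 12 of 79 (15.2%) were higher and 3 (3.8%) lower, beside the 20.6% and 14.5% of all genes given above, and against HE-YSP 13 (16.5%) were higher and 4 (5.06%) lower, beside 22% and 16.2%. Both counts of lower members were well under the background. That background was every gene past the limit of 20 CPM, not matched to the members in level, and the part of level was not tested. The nuclear members are short transcripts, with mean counted lengths of 755, 762 and 766 bases in HE-AGM, HE-YSA and HE-YSP, whereas the mean over all counts was 1507 bases in HE-AGM and 1169 and 1162 bases in the yolk sac populations. The 2137 other genes with lengths in the range of most nuclear members had median log2 ratios of -0.44 and -0.42, with 263 (12.3%) higher and 517 (24.2%) lower against HE-YSA and 288 higher and 561 lower against HE-YSP.

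**Figure D1:**
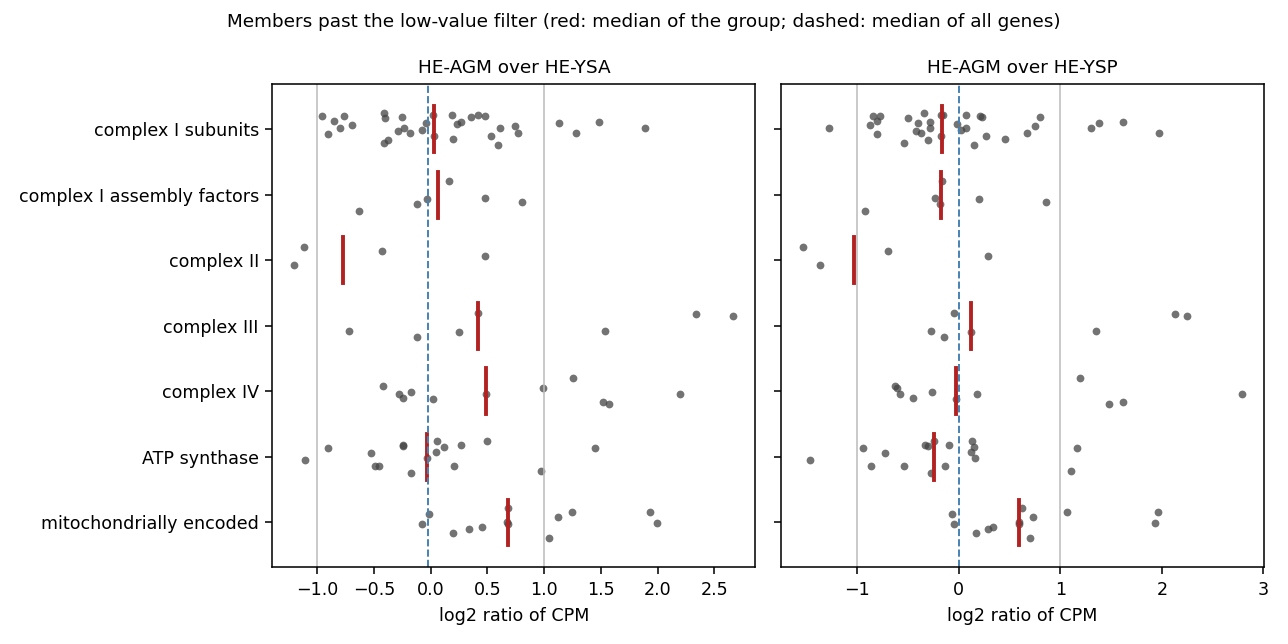
Log2 ratio of CPM in HE-AGM over HE-YSA (left) and over HE-YSP (right) for each member past the low-value limit, by complex, with 1 point per gene, a red bar at the group's median, a dashed line at the median of all genes and grey lines at 2-fold. The mitochondrial genes have medians of 0.68 and 0.59 and complex II of -0.77 and -1.03, while the other groups lie on both sides of 0.

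Among complex I subunits, 4 of 34 were called higher against HE-YSA (Ndufab1, Ndufb1, Ndufb9 and Ndufs3) and none lower, beside 20.6% and 14.5% of all genes, with a median log2 ratio of 0.03, and the same number was called higher and 1 lower, Ndufa8, against HE-YSP, beside 22% and 16.2%, with a median of -0.16. These shares of members were under those of all genes. Ndufb1, a small accessory subunit of the membrane arm with no matched pseudogene, had 492, 558 and 594 CPM in AGM_3, AGM_4 and AGM_5 and between 173 (YS_b2) and 243 CPM (YS_m1) in the yolk sac clusters. All AGM clusters were above all yolk sac clusters. The log2 ratios were 1.13 over HE-YSA and 1.38 over HE-YSP, positive in each run.

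Ndufb9, another accessory subunit without a matched pseudogene, had 60.9 CPM in HE-AGM (95% interval 52.9 to 70.0), against 16.2 CPM in HE-YSA (11.1 to 23.1) and 24.5 CPM in HE-YSP (17.6 to 33.3), and was detected in 38 of 49, 17 of 52 and 22 of 49 cells. Ndufs3, a core subunit of the arm that takes up electrons, had 52.5, 21.4 and 13.1 CPM in the same populations. It passed the limit of 20 CPM mainly through the AGM clusters. Ndufa8, an accessory subunit that faces the intermembrane space, was the reverse, with 163 CPM in HE-AGM, against 282 CPM in HE-YSA and 392 CPM in HE-YSP (log2 ratio of -1.27 over HE-YSP). Ndufab1, the mitochondrial acyl carrier protein, had 72.6, 25.7 and 23.4 CPM, but with its pseudogenes its log2 ratios turned from 1.48 and 1.62 to -0.22 and -0.39. None of the 6 assembly factors tested was called, with ratios from -0.63 to 0.80 and from -0.92 to 0.86.

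Complex II had the lowest median log2 ratios of the groups, -0.77 over HE-YSA and -1.03 over HE-YSP, and none of its 4 genes had a matched pseudogene. It took 0.0513% of counts in HE-AGM, against 0.0879% in HE-YSA and 0.106% in HE-YSP. Sdhc and Sdhd, which encode the membrane anchor, accounted for most of this. Sdhd had 149, 150 and 176 CPM in AGM_3, AGM_4 and AGM_5 and 349, 340, 381, 410, 361 and 450 CPM in YS_m1, YS_m2, YS_p1, YS_b2, YS_b3 and YS_p2. Sdhc had 103, 116 and 117 CPM in the AGM clusters and 164, 291, 358, 303, 324 and 266 CPM in the yolk sac clusters. The AGM and yolk sac clusters did not overlap for either gene.

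In single cells, the lowest, median and highest level of Sdhd was 0, 135 and 471 CPM in HE-AGM, against 0, 358 and 862 CPM in HE-YSA and 81.6, 394 and 871 CPM in HE-YSP, so the ranges overlapped. The log2 ratios were -1.20 and -1.37 for Sdhd and -1.12 and -1.53 for Sdhc. Sdhb, the iron-sulfur subunit, was lower by less, with 186 CPM in HE-AGM, against 251 CPM in HE-YSA and 301 CPM in HE-YSP (-0.43 and -0.69). Sdha, the flavoprotein subunit that binds succinate, had the other sign, with 69.1, 49.3 and 56.2 CPM (0.48 and 0.29), and its runs differed in sign in both comparisons. The 4 genes of the complex thus did not move together.

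Complex III held the nuclear member with the highest ratio against HE-YSA. Uqcrq, a small subunit of the membrane part, had 94.6, 89.2 and 94.6 CPM in AGM_3, AGM_4 and AGM_5 and 18.7, 10.8, 24.4, 17.3, 21 and 14.7 CPM in YS_m1, YS_m2, YS_p1, YS_b2, YS_b3 and YS_p2. Uqcrq was detected in 41 of 49 cells of HE-AGM, 14 of 52 of HE-YSA and 23 of 49 of HE-YSP, and passed the limit of 20 CPM mainly through the AGM clusters. The clusters of the tissues did not overlap, and the level was 6.35-fold and 4.76-fold higher in HE-AGM (log2 ratios of 2.67 and 2.25, positive in each run). With its pseudogenes, which were rare (2.25 to 7.74 CPM), the log2 ratios were 2.09 and 2.12.

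Uqcrb, the ubiquinone-binding protein gene, differed from Uqcrq when its pseudogenes were added. The gene alone had 128, 25.2 and 29.1 CPM in HE-AGM, HE-YSA and HE-YSP, log2 ratios of 2.33 and 2.13. Its pseudogenes had 607, 724 and 791 CPM, and the log2 ratios of the sum were -0.03 and -0.16. The copies printed above are identical over the first 60 coding bases, so a read covering this stretch alone fits either. Uqcr11 had 61.5, 21 and 23.8 CPM (log2 ratios of 1.54 and 1.36, with pseudogenes 1.16 and 1.07). The core subunits Uqcrc1 (206, 155 and 213 CPM) and Uqcrc2 (26.4, 43.6 and 31.7 CPM) were not called.

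In complex IV, 4 of 11 genes were called higher in HE-AGM in each comparison, beside 20.6% and 22% of all genes, and none was when matched pseudogenes were added, beside 18.7% and 20%. Cox6b1, which joins the monomers of the complex on its outer side, had 112, 135 and 137 CPM in AGM_3, AGM_4 and AGM_5 and between 16.4 (YS_b2) and 27.6 CPM (YS_m1) in the yolk sac clusters. It was detected in 48 of 49 cells of HE-AGM, 24 of 52 of HE-YSA and 20 of 49 of HE-YSP. Its pseudogenes, Gm38305 above all, had 213, 247 and 251 CPM, and with them the log2 ratios went from 2.20 and 2.79 to 0.29 and 0.32. Cox6c (1.57 and 1.48) went to -0.12 and -0.05, Cox7c (1.52 and 1.62) to 0.29 and 0.29, and Cox7a2 (1.25 and 1.19) to 0.23 and 0.31. The abundant subunits Cox4i1 (-0.42 and -0.63), Cox8a (-0.25 and -0.45) and Cox6a1 (-0.28 and -0.58) were somewhat lower in HE-AGM, each in all 3 runs.

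Among genes of ATP synthase, Atp5me, a membrane subunit, was called higher in both comparisons (152.8, 55.7 and 67.7 CPM, with log2 ratios of 1.45 and 1.17, and of 1.07 and 1.27 with pseudogenes), and Atp5mj, another small membrane subunit, against HE-YSP alone (1.10, and 0.97 over HE-YSA, each under 1 with pseudogenes). Atp5po, which encodes the peripheral stalk subunit and has 2 gene identifiers that were summed, was called lower in both, with 293 CPM in HE-AGM, against 630 CPM in HE-YSA and 805 CPM in HE-YSP (-1.11 and -1.46). With pseudogenes it was at -0.50 and -0.82. The catalytic subunit gene Atp5f1b differed little (810, 573 and 736 CPM) and so did Atp5if1 (1167, 1073 and 1050 CPM).

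**Figure D2:**
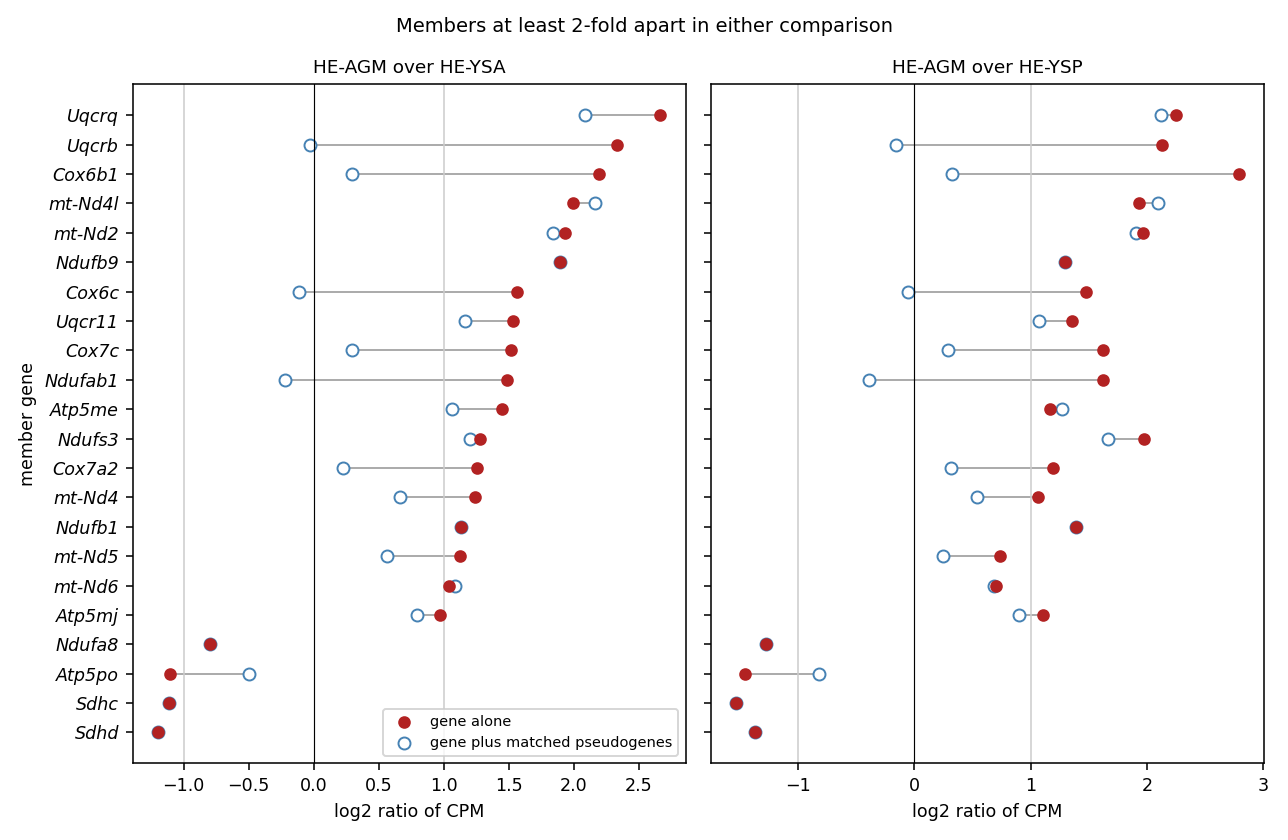
Log2 ratio of CPM in HE-AGM over HE-YSA (left) and HE-YSP (right) for the members at least 2-fold apart in either comparison, for the gene alone (filled points) and for the gene plus its matched pseudogenes (open points), with grey lines at 2-fold. Uqcrb, Cox6b1, Cox6c, Cox7c, Ndufab1 and Cox7a2 move from above 1 to between -0.39 and 0.32, whereas Uqcrq, mt-Nd2, mt-Nd4l, Ndufb9 and Ndufb1 stay above 1 and Sdhc and Sdhd below -1.

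With pseudogenes added, 6 of 79 nuclear members (7.59%) were called higher against HE-YSA and 6 against HE-YSP, beside 18.7% and 20% of all genes, and 2 (2.53%) and 4 (5.06%) lower, beside 14.7% and 16.4%. Called higher were Atp5me, Ndufb1, Ndufb9, Ndufs3, Uqcr11 and Uqcrq in each, and called lower were Sdhc and Sdhd, joined against HE-YSP by Ndufa8 and the peripheral stalk gene Atp5pb (-1.16). Of those called higher, Uqcrq and Ndufs3 were low in the yolk sac and passed the limit of 20 CPM mainly through the AGM clusters. Their place in these counts rests on the clusters where they were high. Restricting counts to transcripts of the protein_coding biotype lowered Cox6c from 1.57 and 1.48 to -0.37 and -0.37, and left Uqcrq at 2.60 and 2.15, Ndufb1 at 1.17 and 1.39, and Ndufb9 at 1.94 and 1.56.

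The yolk sac populations resembled each other closely. In HE-YSP over HE-YSA the 79 nuclear members had a median log2 ratio of 0.13, and 1 was called higher, Cox4i2, beside 5.3% of all genes, and none lower, beside 6.39%. The mitochondrial genes ranged from -0.03 to 0.39 and none was called. The ratio of Cox4i2 rests on 51 and 19 counts and was 1.59 in all, -0.01, 1.98 and 2.73 in the runs, and 0.33 without 2 YS_b3 cells that held 31 of the counts. Sdhc had a log2 ratio of 0.41 and Sdhd of 0.17.

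Along the AGM and arterial trajectories, the member that differed most was Cox4i2, the alternative form of complex IV subunit 4 that is known from lung and as a hypoxia-responsive gene. Its level was 13.4, 29.5 and 102.7 CPM in AGM_3, AGM_4 and AGM_5, 5.95, 13.2 and 129 CPM in YS_m1, YS_m2 and YS_p1, and 19.98, 41.4 and 57.3 CPM in YS_b2, YS_b3 and YS_p2. In each trajectory the order was early HE, late HE, then the following cluster, but in the plexus trajectory 31 of the 34 counts of YS_b3 came from 2 cells, and the other 22 cells had 4.02 CPM, below YS_b2. Cox4i2 was detected in 9 of 29, 6 of 20 and 16 of 21 AGM cells, in 2 of 23, 4 of 29 and 11 of 17 cells of the arterial and in 5 of 25, 5 of 24 and 9 of 20 cells of the plexus trajectory.

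The 95% intervals of the late HE cluster and the cluster after it were apart in the AGM (21.2 to 40 and 87.1 to 120 CPM) and in the arterial trajectory (7.19 to 22.1 and 103 to 160 CPM) and overlapped in the plexus trajectory (28.7 to 57.9 and 41.3 to 77.5 CPM). The log2 ratios were 1.79 for AGM_5 over AGM_4 (3.11, 1.73 and 1.11 in the runs) and 3.26 for YS_p1 over YS_m2 (3.63, 1.51 and 3.49). For YS_p2 over YS_b3 the log2 ratio was 0.47, with runs at 3.10, -0.45 and -0.26, and 3.63 without those 2 cells. Ordered by level, the clusters ran YS_p1, AGM_5, YS_p2, YS_b3, AGM_4, YS_b2, AGM_3, YS_m2 and YS_m1, and each neighbouring pair other than AGM_5 and YS_p2 had overlapping intervals. The summed blood markers were also highest in AGM_5 (1090 CPM), YS_p1 (985 CPM) and YS_p2 (816 CPM), and whether Cox4i2 followed them was not tested. Coro1a made up most of these sums (639.9, 779.8 and 666.3 CPM). Itga2b was highest in YS_b2 (51.7 CPM) and Spi1 in AGM_4 (253.9 CPM), and Myb was lower in YS_p1 (47.2 CPM) than in YS_m2 (72.3 CPM).

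**Figure D3:**
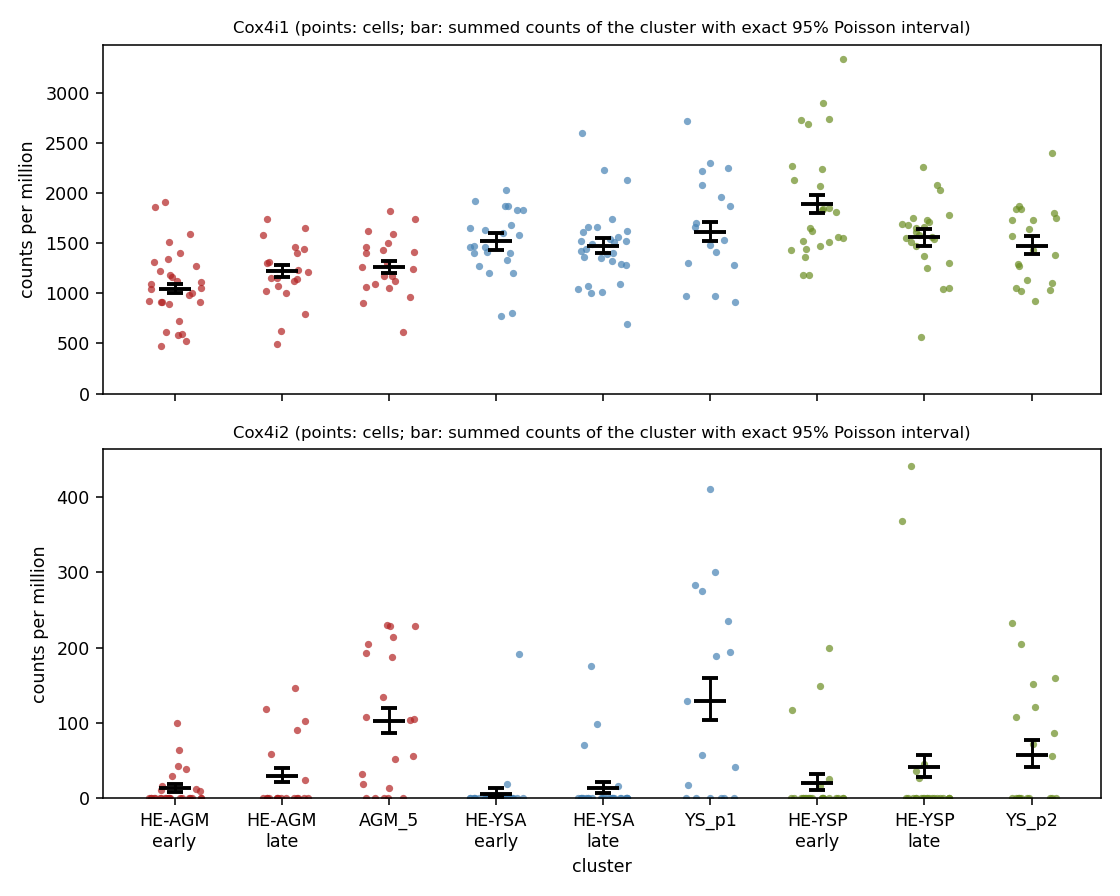
Cox4i1 (upper panel) and Cox4i2 (lower panel) in CPM in the 9 clusters, with 1 point per cell and a bar at the level of the summed counts with its exact 95% Poisson interval. Cox4i1 lies between 1043 and 1890 CPM in every cluster, and Cox4i2 is highest in YS_p1 (129 CPM) and AGM_5 (102.7 CPM), with many cells at 0 in every cluster.

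Cox4i1 showed no such order, with 1043, 1218 and 1260 CPM in the AGM clusters, 1518, 1474 and 1613 CPM in the arterial and 1890, 1557 and 1475 CPM in the plexus trajectory. At every stage Cox4i1 was the more abundant of the pair. The forms typical of heart and skeletal muscle were near absent: Cox6a2 had 1 cell with a count, Cox7a1 had 7 and Cox8b none, whereas their widely expressed counterparts Cox6a1, Cox7a2 and Cox8a were detected in 208, 177 and 208 cells. Cox6b2, known from testis, was detected in 32 cells, with 30.2 CPM in AGM_4 at its highest, and Cox7a2l, which takes part in joining complexes III and IV, in 203 cells at 81.5 to 145 CPM.

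Other members differed little along the trajectories. In AGM_5 over AGM_4, Cox4i2 and Ndufs3 (1.03) were called higher, beside 5.3% of all genes, and Sdha and Ndufaf6 (-1.09) lower, beside 10.6%, with a median of 0.06 over the 79 nuclear members. Sdha had 67.0, 71.9 and 22.5 CPM in AGM_3, AGM_4 and AGM_5 and was detected in 22 of 29, 16 of 20 and 8 of 21 cells, a log2 ratio of -1.66 (-3.01, -2.13 and -1.02 in the runs). The other 3 genes of complex II did not follow, with Sdhb at 181 and 220 CPM, Sdhc at 116 and 117 CPM and Sdhd at 150 and 176 CPM in AGM_4 and AGM_5. In the arterial trajectory Sdha was not lower, at 48.8 CPM in YS_m2 and 71.6 CPM in YS_p1.

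In YS_p1 over YS_m2, 5 of 79 nuclear members were called higher, beside 9.57% of all genes, and none lower, beside 13.3%. They were Cox4i2, Ndufab1 (1.80), Ndufaf6 (1.38), Uqcrq (1.16) and Cox7c (1.03), and the median over nuclear members was 0.26, beside 0.04 for all genes. Apart from Cox4i2 each rested on 71 counts or fewer in either cluster. The nuclear members together took 2.68% of counts in YS_p1 and 2.28% in YS_m2, a log2 ratio of 0.23 that was positive in each run. Ndufv3, a small accessory subunit with alternative forms, was higher without being called in both trajectories, with log2 ratios of 0.73 for AGM_5 over AGM_4 and 0.80 for YS_p1 over YS_m2. In YS_p2 over YS_b3, 1 member was called higher, Uqcrc2 (34.1 and 69.6 CPM in YS_b3 and YS_p2, 1.02), beside 7.55%, and none lower, beside 12.1%.

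Transcript shares of some members differed between the tissues, in genes without a call at the gene level (such as Uqcrc1) and in called genes (such as Cox6c). For the 64 members with at least 50 counts in both HE-AGM and HE-YSA, 13 (20.3%) had a transcript whose share of the gene's counts differed by more than 20 percentage points, beside 30.6% of the 3344 genes tested. Against HE-YSP it was 11 of 63 (17.5%), beside 28.4%, and between HE-YSP and HE-YSA 0 of 62, beside 5.84%. The share of members was thus under the background in each. In HE-AGM, 79.2% of the counts of nuclear members fell on protein_coding transcripts and 9.66% on transcripts with a retained intron, beside 85.0% and 6.59% for HE-YSA and 85.2% and 6.84% for HE-YSP.

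The core subunits of complex III are an example. The long transcript Uqcrc1-201 (1653 bases) held 87.9% of the gene's counts in HE-AGM (95% interval 85.1 to 90.1%), against 45.7% for HE-YSA (39.98 to 51.6%) and 49.0% for HE-YSP (43.6 to 54.2%), and the short Uqcrc1-205 (580 bases) 8.15, 49.3 and 50.8%. Uqcrc2 had the same pattern. Uqcrc2-201 (1896 bases) held 68.2, 14.5 and 16.98% and Uqcrc2-206 (462 bases) 18.8, 73.5 and 70.8%. Both differences had the same sign in each run.

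For Cox6c, the retained-intron transcript Cox6c-202 (3038 bases) held 80.7% of counts in HE-AGM, against 25.9% in HE-YSA and 30.4% in HE-YSP, and the protein_coding Cox6c-205 (606 bases) 9.74, 62.6 and 56.6%. Other members did not order by length. For Ndufb10, the 526-base Ndufb10-203 held 51.6, 86.8 and 85.4% and the shorter 430-base Ndufb10-204 held 14.7, 3.15 and 3.51%. For Atp5mj, the 435-base Atp5mj-204 held 52.7, 86.5 and 83.1% and the 440-base Atp5mj-205 held 16.15, 3.00 and 4.38%. For Ndufv1, the 1436-base Ndufv1-202 held 27.4, 58.4 and 62.1% and the 1661-base Ndufv1-201 held 25.05, 10.2 and 9.17%. Atp5f1b had short transcripts in both directions, with the 478-base Atp5f1b-206 at 21.9, 1.00 and 1.20% and the 343-base Atp5f1b-207 at 1.86, 17.6 and 13.7%. The mean length over all counts was higher in HE-AGM, as given above, and its part in these shares was not tested.

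**Figure D4:**
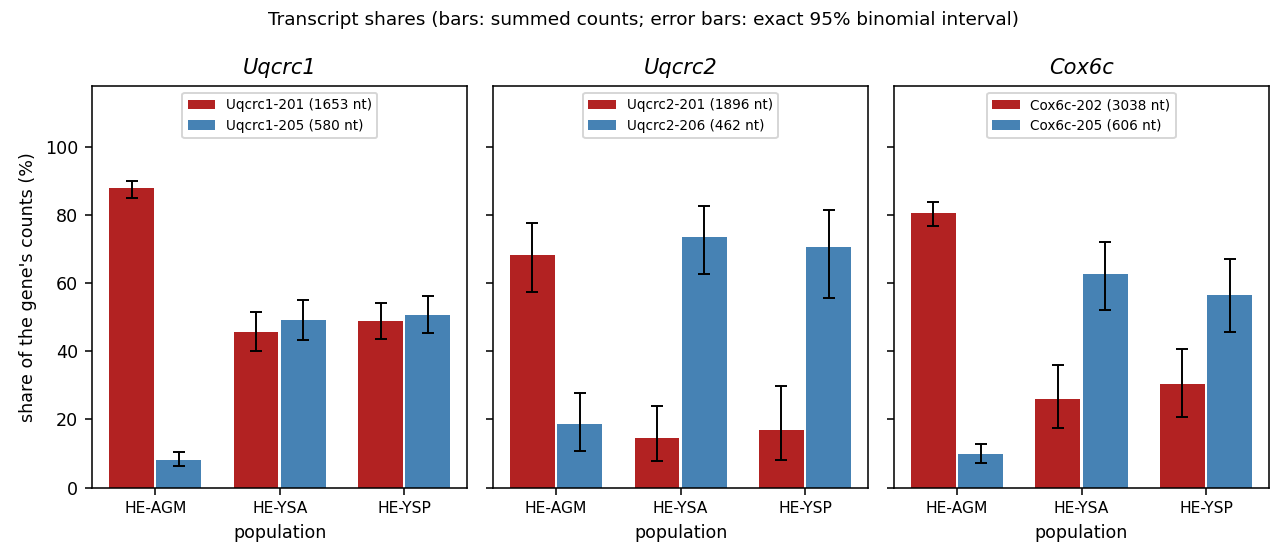
Share of the gene's counts (%) on a long and a short transcript of Uqcrc1, Uqcrc2 and Cox6c in HE-AGM, HE-YSA and HE-YSP, as bars of the summed counts with exact 95% binomial intervals. The long transcript holds 68.2 to 87.9% in HE-AGM and 14.5 to 49.0% in the yolk sac populations.

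The genes around the respiratory chain were examined as lists chosen by function. Of 14 regulators of respiratory genes, 6 passed the limit of 20 CPM. Called higher were Pprc1, a coactivator related to PGC-1alpha (2.39 and 2.06), Gabpa, the DNA-binding subunit of NRF2/GABP (1.96 and 1.12), and Lrpprc, which stabilises mitochondrial mRNA (1.94 and 1.99), in both, and the rRNA methyltransferase gene Tfb1m (1.53) against HE-YSP. Pprc1, Gabpa and Lrpprc were at low levels and passed the limit mainly through the AGM clusters, so the count called says nothing of the list. Lrpprc had 55.0, 38.4 and 59.5 CPM in AGM_3, AGM_4 and AGM_5 and 4.68 to 19.2 CPM in the yolk sac clusters. Tfb1m, also low, had 20.6, 71.9 and 43.7 CPM in the AGM clusters, beside 60.1 CPM in YS_m2 and 0 in YS_b2.

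The next 4 lists had medians below 0, and their counts are to be read beside 20.6% (HE-YSA) and 22% (HE-YSP) of all genes called higher and 14.5% and 16.2% lower. Of 23 other assembly factors of the complexes, 16 passed, with medians of -0.25 and -0.32, 2 higher (Cox16 and Uqcc2) and 4 and 2 lower. Of 8 genes for electron carriers and transport, 7 passed, with medians of -0.60 and -0.67, Vdac1 higher in both and Vdac2 lower against HE-YSA. Cyc1, which encodes cytochrome c1 of complex III but has a symbol outside the rule for members, was at -0.78 and -1.17, called lower against HE-YSP. Of 13 citric acid cycle genes, 11 passed, with medians of -0.08 and -0.32 and Cs, citrate synthase, higher in both (1.22 and 1.05). Of 78 mitochondrial ribosomal protein genes, 67 passed, with medians of -0.29 and -0.25, 4 and 2 higher and 7 and 5 lower.

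The mitochondrial rRNAs differed from each other, with mt-Rnr1 at -0.65 and -1.31 and mt-Rnr2 at 0.44 and 0.46. The positive ratios of mt-Rnr2 came from AGM_3 (382.6 CPM), since AGM_4 (123.8 CPM) lay below every yolk sac cluster (174.5 to 229.9 CPM), and without the AGM_3 cell with the most counts they were 0.17 and 0.19. Both rRNAs summed had log2 ratios of -0.12, 0.76 and 0.16 in the runs over HE-YSA and of -0.10, 0.67 and -0.15 over HE-YSP. Of 101 cytosolic ribosomal protein genes, 87 passed, with medians of 0.40 and 0.41. In each comparison 24 were higher, beside 20.6% and 22% of all genes, and 6 and 5 lower, beside 14.5% and 16.2%. The medians had the same direction as the summed mitochondrial mRNAs. These ratios are for the genes alone, and their change with matched pseudogenes was not tested. In HE-YSP over HE-YSA the medians of these 7 lists lay between -0.15 (regulators) and 0.32 (mitochondrial rRNA). In AGM_5 over AGM_4 they lay between -0.01 and 0.63, in YS_p1 over YS_m2 between 0.00 and 0.42, and in YS_p2 over YS_b3 between -0.12 and 0.42.

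The promoters of nuclear members were searched for the cores of factors known to act on respiratory genes, in RefSeq windows of GRCm38.p6 from 250 bases before to 50 after the start. A window was found for 76 of 96 nuclear members and for 27025 genes in all, and both strands were read. The NRF1 core GCGCATGCG was in windows of 10 members (13.2%) and of 1.95% of all genes, the YY1 core AAGATGGCG in 8 (10.53%) and 1.64%, the ERR core TCAAGGTCA in 2 (2.63%) and 0.466%, the ETS core CCGGAAGTG in 2 (2.63%) and 2.25%, and the E-box CACGTG in 6 (7.89%) and 8.09%. At least 1 of the first 4 was in 22 members (28.9%) and 6.01% of all genes. The members with an NRF1 core were Atp5mc2, Atp5me, Atp5mg, Cox6a1, Ndufa11, Ndufa8, Ndufaf4, Ndufaf5, Uqcr11 and Uqcrc1, of which Atp5me and Uqcr11 were called higher and Ndufa8 lower in HE-AGM, so members with the core were found in both directions. The window of Cox6a1, the highest of them in CPM per kb, is printed as an example, with the NRF1 core in capitals at 162 to 154 bases before the start.
Cox6a1 (chr5:115348909-115349208, minus strand): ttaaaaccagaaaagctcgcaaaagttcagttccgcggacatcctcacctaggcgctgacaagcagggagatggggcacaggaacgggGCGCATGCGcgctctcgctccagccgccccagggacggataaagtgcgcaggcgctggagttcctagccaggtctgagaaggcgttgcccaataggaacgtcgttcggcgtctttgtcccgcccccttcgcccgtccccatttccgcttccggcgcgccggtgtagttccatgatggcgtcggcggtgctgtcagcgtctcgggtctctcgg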

How the data were processed

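Single cells from reporter embryos were sorted, amplified by Smart-seq2 and their cDNA sequenced on nanopore flow cells. The authors used Dorado for basecalling, bbduk for trimming, and YACRD together with porechop to discard chimeras, mapped the reads to GENCODE transcripts (release 37 in the study's methods) with Minimap2 (version 2.26 in the submitters' processing notes) keeping several alignments per read, and estimated abundance with NanoCount. The deposited estimated counts per transcript need not be whole and are not normalized. The TPM values deposited by the authors equal counts over the cell's total (largest difference 5.85e-15), so they are not divided by transcript length. The authors' later cell filter and DESeq2 scaling came after these tables.

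Cells with fewer than 17595 counts were left out, after the study's filter. Clusters were taken from the sample labels. Transcript counts were summed per gene symbol and over the cells of a cluster or population and divided by the summed total (CPM). Log2 ratios had 0.5 counts added to each sum, genes entered with a mean of the 9 cluster levels of at least 20 CPM, a call was a 2-fold difference, and a gene was detected in a cell at 0.5 counts or more. CPM per kb used the mean counted transcript length. Estimated counts were rounded for 95% intervals, and a total of 3 counts was the limit for genes at 0. Pseudogenes were matched to members with blastn 2.17.0 (80% identity over 50% of the pseudogene, best match), a step added after the data were seen. Sequences came from GRCm38 with GENCODE M21, by transcript identifier, and promoters from RefSeq, where 63 members matched by symbol and 13 by an older symbol. Protein sequences were not used here.

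The members and lists were chosen with earlier results of these data known. Named were all mitochondrial members, complex II, the 3 highest members of each nuclear group, in each of the 6 comparisons the 4 highest and 4 lowest nuclear members with the same sign in the 3 runs, and tissue-type or regulatory members. The other members named (such as Cox6c, Cox7c, Uqcr11, Atp5me, Atp5mj, Atp5pb, Ndufa8, Ndufb1, Ndufb10, Ndufv1, Atp5f1b, Ndufa12 and Atp5mg) and Pprc1, Gabpa, Lrpprc, Tfb1m and Cs were chosen after their values were seen. Alternatives were a library limit on the log scale, no cell filter, the mean over cells, scaling by edgeR 4.0.16 or DESeq2 1.42.0, totals without mitochondrial transcripts, protein_coding transcripts alone, cells of 30000 to 60000 counts, yolk sac cells of E10.5, limits of 5 and 50 CPM, and leaving out each run. Leaving out cells with the most Cox4i2 or mt-Rnr2 counts was chosen after the data were seen. The scripts (Python 3.11.15, R 4.3.3) were tested on simulated data.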

Additional observations from a re-analysis of the deposited data

Results flagged for a closer look

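Some transcripts of the same origin as the members carried counts that entered the comparisons above only within sums with matched pseudogenes or not at all, each above the limit of 0.306 CPM that 3 counts over all 208 cells set. The annotated mitochondrial tRNA gene mt-Ts1 had 6843 CPM over all cells used, more than any member in mean CPM. Its log2 ratio was 0.28 for HE-AGM over HE-YSA and 0.22 over HE-YSP, positive in each run, beside 0.63 and 0.55 for the summed mitochondrial mRNAs. Atp6-ps, the chromosome 1 copy that is identical to mt-Atp6 over its whole aligned length, had 4952 CPM. The 20 symbols that the prefixes matched but that had no protein_coding transcript or held "-ps" summed to 2673 CPM, 19 of them with counts, led by Ndufa12-ps (642 CPM), Cox5b-ps (424 CPM) and Atp5k-ps2 (397 CPM). Cox5b-ps is annotated as protein_coding and was left out for its symbol alone. How reads were divided between these entries and the members was not tested.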

How the results depend on the processing

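Of 363 alternative values of the sums, medians and counts of members, 299 stayed within the spread between runs (or, for counts of members, within 1.5 times), and 64 moved. For the 51 ratios of called members, 657 of 706 alternative values lay within the spread between runs, 41 moved further without a change of sign and 8 changed sign. The sign changed over HE-YSA and HE-YSP with pseudogenes for Cox6c (-0.12 and -0.054), Ndufab1 (-0.22 and -0.39) and Uqcrb (-0.028 and -0.16), and with protein_coding transcripts alone for Cox6c (-0.37 and -0.37). Without each nanopore run in turn, the summed mitochondrial log2 ratio ranged from 0.57 to 0.71 for HE-AGM over HE-YSA, 0.53 to 0.56 over HE-YSP, 0.02 to 0.14 for HE-YSP over HE-YSA, -0.02 to 0.15 for AGM_5 over AGM_4, -0.23 to -0.06 for YS_p1 over YS_m2 and -0.38 to -0.11 for YS_p2 over YS_b3. In the same order, the nuclear median ranged from 0.031 to 0.13, -0.18 to -0.06, 0.11 to 0.13, 0.04 to 0.10, 0.22 to 0.33 and -0.14 to 0.03, the count of nuclear members called higher from 14 to 16, 13 to 16, 1 to 2, 1 to 2, 6 to 8 and 0 to 3, and the count called lower from 2 to 5, 4 to 6, 0 to 1, 1 to 2, 1 to 4 and 0 to 2.

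Over HE-YSP the mitochondrial log2 ratio was 0.47 with DESeq2 size factors and 0.63 in cells of 30000 to 60000 counts. The nuclear median over HE-YSA lay near 0 and was 0.079 with the limit on the log scale, 0.14 as a mean over cells, -0.033 with DESeq2 size factors, -0.13 with protein_coding transcripts alone, 0.085 in cells of 30000 to 60000 counts, 0.0067 with yolk sac cells of E10.5, 0.14 and -0.043 with limits of 5 and 50 CPM, and -0.12 with pseudogenes. For AGM_5 over AGM_4 it was 0.16 with edgeR and 0.14 with DESeq2 factors. Members called higher over HE-YSA numbered 19 of 88 and 7 of 65 at 5 and 50 CPM and 6 of 79 with pseudogenes. Over HE-YSP they numbered 8 of 72 with protein_coding transcripts, 8 of 65 at 50 CPM and 6 of 79 with pseudogenes. Except with pseudogenes, no share of all genes called is given for these settings or without each run. The counts therefore cannot be read as a trait of the members.

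Small counts moved readily, and with no share of all genes beside them they say nothing of the members as a set. For HE-YSP over HE-YSA, 3 were called higher in cells of 30000 to 60000 counts, 4 at E10.5, and 2 and 0 at 5 and 50 CPM, with 2 and 1 lower under the first 2 settings. For AGM_5 over AGM_4, 1 was higher as a mean over cells and 0 at 50 CPM, and lower were 1 with edgeR, with protein_coding transcripts and at 50 CPM and 6 in cells of 30000 to 60000 counts. For YS_p1 over YS_m2, higher were 3 as a mean over cells, 13 in cells of 30000 to 60000 counts, 11 and 1 at 5 and 50 CPM and 2 with pseudogenes, and 1 was lower with protein_coding transcripts or at E10.5. For YS_p2 over YS_b3, higher were 2 with the limit on the log scale, 4 in cells of 30000 to 60000 counts, 5 at E10.5 and 3 and 0 at 5 and 50 CPM, and lower were 1 with edgeR, without mitochondrial transcripts or at 5 CPM, 3 with protein_coding transcripts and 11 at E10.5. Cells are fewer at E10.5 and at 30000 to 60000 counts, and the cause of the other shifts was not tested. No paired analysis was possible because no result comes from a test. Ratios within single runs are given above. Below about 50 CPM a population's interval spans a large part of its value, and the depth limits what can be said of such members.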
